A study of Mus musculus with 10 samples.

Results

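The 4 mature arms of the mouse miR-132 and miR-212 hairpins were measured in retina, as 4 of the 1061 mature miRNAs of the deposited table. They were chosen by name, as both arms of each hairpin. Small RNA was sequenced from right and left retinas of 5 wild-type C57BL/6J mice, an inbred laboratory strain, at postnatal day 34. A lens of -20 D, which puts the image behind the retina and serves to induce myopia, had been worn over 1 eye of each mouse for 10 days from postnatal day 24, and the other eye had none. Which eye had the lens is not in the labels, which name side and mouse, so retinas were compared as right (5 libraries) against left (5 libraries) within mice 61, 64, 65, 66 and 68, and a lens effect that lay on different sides in different mice would not be seen. Both eyes of each animal had the same genotype and age, and no mouse without a lens is in these samples.

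A miRNA hairpin is cut into a duplex, and either arm can be loaded into Argonaute, where the seed, bases 2 to 8 of the mature strand, pairs with messenger RNAs. In rodent neurons the locus of miR-132 and miR-212 is transcribed as 1 precursor under control of the factor CREB after synaptic activity or neurotrophin signalling, and miR-132-3p is known for promoting dendrite growth. In mice the locus is also known to respond to light in the suprachiasmatic nucleus and to visual experience in the visual cortex. The arms are shown because the 3p arms share their seed while the 5p arms do not, so the members form a shared target class and 2 others. The seed is in capitals in the RefSeq sequences (GRCm38.p6) of the mature strands.
mmu-miR-132-3p: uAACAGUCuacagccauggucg
mmu-miR-212-3p: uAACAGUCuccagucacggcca
mmu-miR-132-5p: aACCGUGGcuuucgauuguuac
mmu-miR-212-5p: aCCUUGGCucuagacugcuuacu

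The 3p arms were identical at 17 of 22 positions. Counted from 1 at the 5′ end, with the base of miR-132-3p first and that of miR-212-3p after it, they differed by A10C, C14U, U17C, U20C and G22A, all outside the seed. No other miRNA among the 909 of the table that could be matched by name to a RefSeq mature sequence had the seed of a 3p arm, and none shared that of either 5p arm. The 5p arms matched at 14 of 21 positions when miR-132-5p was read from its second base, which moves their seeds out of register. The GC content was 50.0% in miR-132-3p, 45.5% in miR-132-5p, 54.5% in miR-212-3p and 47.8% in miR-212-5p, against a median of 47.8% over the 424 of 484 tested miRNAs with a matched sequence.

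Both hairpins lay on the plus strand of chromosome 11 (GRCm38), with Mir212 at chr11:75173388-75173478 and Mir132 downstream at chr11:75173682-75173747, 203 bases apart. In the GENCODE annotation both sat in intron 1 of the 3-exon noncoding transcript 1700016P03Rik, between the end of exon 1 at 75172597 and the start of exon 2 at 75173978. The hairpin sequences follow with the mature arms in capitals, to show where the strands below come from.
Mir132: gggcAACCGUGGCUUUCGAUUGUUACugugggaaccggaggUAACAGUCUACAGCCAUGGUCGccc
Mir212: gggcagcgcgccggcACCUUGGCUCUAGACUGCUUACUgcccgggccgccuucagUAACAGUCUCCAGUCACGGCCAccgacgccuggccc

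The RefSeq positions were, for miR-212-5p, chr11:75173403-75173425, for miR-212-3p chr11:75173443-75173464, for miR-132-5p chr11:75173686-75173707 and for miR-132-3p chr11:75173723-75173744, and the starts were the same in the table. The nearest other miRNA of the table on this chromosome was miR-22-5p, 289987 bases downstream. On the other side it was miR-6925-5p, 4467371 bases upstream and at no more than 1.59 normalised reads in any library. miR-22-3p, the abundant arm of the downstream hairpin, averaged 117978 ± 1708 normalised reads in right and 119506 ± 2092 in left retina (SD, n = 5 each).

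The libraries had the miRNA profile of retina, with the photoreceptor miR-182-5p at the highest value, 9840430 normalised reads, in each of them. Of the ranks, 342 carried 1 value in every library, counting the lowest ranks, which were at 0 in all of them. No library had more than 899 of the 1061 miRNAs above 0, and the depth of the libraries is unknown. Right mouse 65 stood apart in the summed lens, cornea and surface epithelium miRNAs, led by miR-184-3p, with 22622 normalised reads and a range of 2119 to 22622 in right and 1217 to 2301 in left retina. Left mouse 68 stood apart in the summed muscle miRNAs, led by miR-133a-3p, with 1629 normalised reads and a range of 248 to 369 in right and 273 to 1629 in left retina. All 3 miRNAs of each of these lists were in the table, and none was at 0 in all libraries. The lists led by miR-124-3p, miR-204-5p, miR-126a-5p, miR-486a-5p and miR-150-5p (neurons, pigment epithelium, endothelium, erythrocytes, leukocytes) had no such library.

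The arm mmu-miR-132-3p, the main guide strand of the pair, was the most abundant of the arms, with ranks from 75 to 90 among the 1061 miRNAs and 0.0140% of the normalised total. In right retina it had 2262 normalised reads in mouse 61, 1990 in mouse 64, 2699 in mouse 65, 2748 in mouse 66 and 2039 in mouse 68. In left retina it had 2308, 1898, 2948, 2748 and 2646 normalised reads in the same order of mice. Mouse 64 was lowest and mice 65 and 66 were highest on both sides. Mouse 68 was low on the right and in the middle on the left, and the sides overlapped.

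The arm mmu-miR-212-3p, the strand with the same seed, followed with ranks from 134 to 151 and 0.00326% of the total. Its right retinas had 606 normalised reads in mouse 61, 524 in mouse 64, 490 in mouse 65, 552 in mouse 66 and 575 in mouse 68. Its left retinas had 662, 560, 524, 575 and 575 normalised reads. Here mouse 61 was highest and mouse 65 lowest on both sides, and the ranges of the sides overlapped.

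The arm mmu-miR-132-5p, the opposite strand of the miR-132 hairpin, lay at ranks 154 to 172. Right retinas held 382 normalised reads in mouse 61, 417 in mouse 64, 350 in mouse 65, 428 in mouse 66 and 331 in mouse 68. Left retinas held 331, 345, 457, 436 and 359 normalised reads. The highest value, in the left retina of mouse 65, stood beside one of the lower values in the right retina of the same mouse.

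The arm mmu-miR-212-5p, the opposite strand of the miR-212 hairpin, was the lowest of the arms at ranks 189 to 232. On the right it had 235 normalised reads in mouse 61, 213 in mouse 64, 147 in mouse 65, 153 in mouse 66 and 250 in mouse 68. On the left it had 235, 214, 171, 214 and 213 normalised reads. Mouse 65 was lowest on both sides, and right mouse 66 was close to it.

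The order miR-132-3p, miR-212-3p, miR-132-5p and miR-212-5p held in 10 of 10 libraries. The ranges of these neighbours over all libraries did not overlap: 1898 to 2948, 490 to 662, 331 to 457 and 147 to 250 normalised reads. Adapter ligation favours some sequences, so this order is one of normalised reads and not of molecules.

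**Figure D1:**
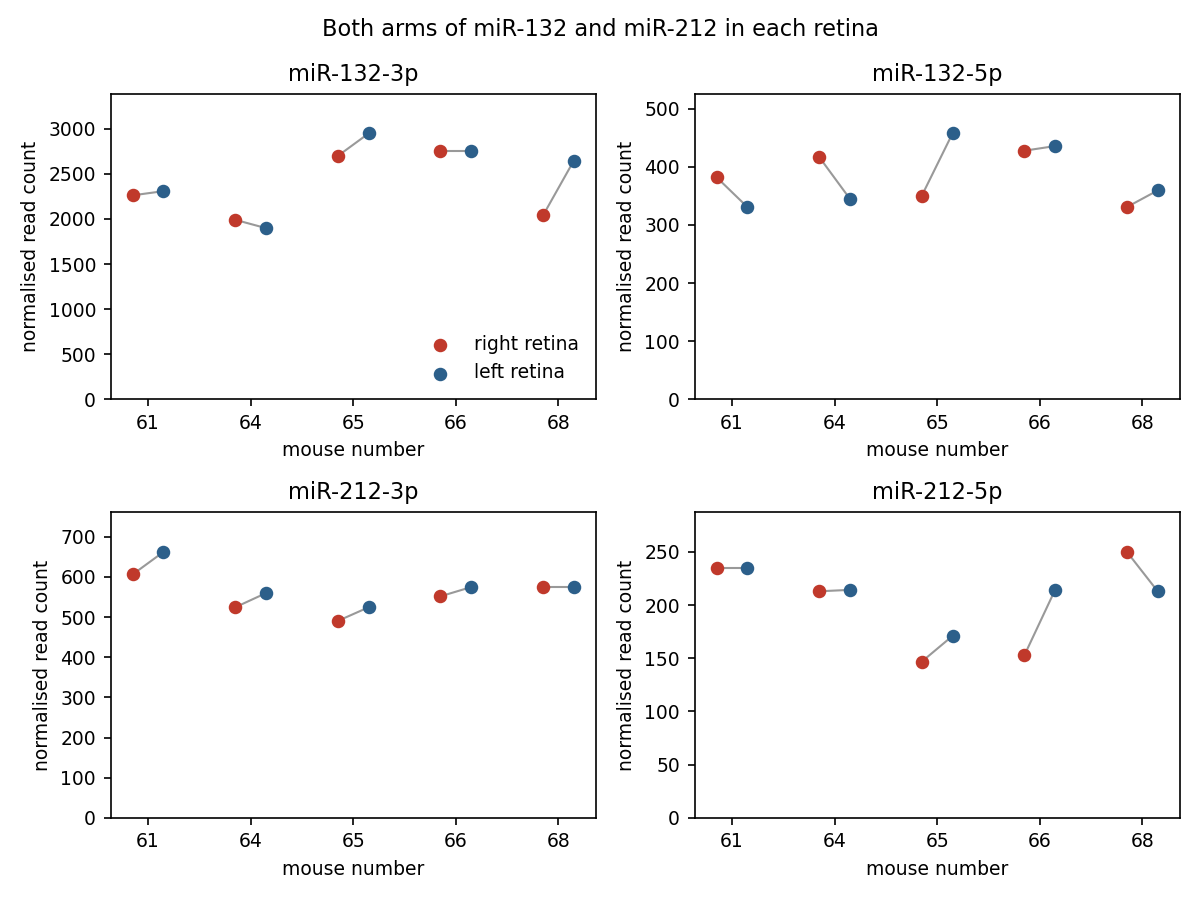
Normalised read count of each arm (y axis, from 0) in the right (red) and left (blue) retina of each mouse (x axis), with a line joining the eyes of a mouse. miR-132-3p lies between 1898 and 2948 normalised reads and miR-212-5p between 147 and 250, and the 2 colours overlap in each panel.

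Setting right against left retina asked whether these activity-linked arms differed within animals that had worn a lens on 1 side. No arm passed limma's test of right against left at an adjusted p of 0.05. The SE given for each arm is that of limma, which draws on the other tested miRNAs. It is not the spread of the arm's own differences over the mice. miR-132-3p averaged 2348 ± 359 normalised reads in right and 2510 ± 413 in left retina (SD, n = 5 each), a log2 fold change of -0.09 (SE 0.08, limma adjusted p = 0.958). It was lower on the right in 3 mice, higher in 1 and equal in 1. miR-212-3p averaged 550 ± 44.7 in right and 579 ± 50.8 in left retina, a log2 fold change of -0.08 (SE 0.07, limma adjusted p = 0.958), and was lower on the right in 4 mice and equal in mouse 68. For miR-132-5p the means were 381 ± 41.7 in right and 386 ± 57.1 in left retina, with a log2 fold change of -0.01 (SE 0.12) and an adjusted p of 1 by limma. For miR-212-5p they were 199 ± 47.3 in right and 209 ± 23.3 in left retina, with a log2 fold change of -0.10 (SE 0.12) and an adjusted p of 0.971 by limma.

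At this precision, the 95% interval of the fold of right over left was 0.817 to 1.08 for miR-132-3p, 0.843 to 1.07 for miR-212-3p, 0.817 to 1.21 for miR-132-5p and 0.768 to 1.14 for miR-212-5p. Folds inside these intervals remain compatible with the values of these 5 mice, and no limit of detection was computed. All 4 arms were among the 484 tested miRNAs, 0 of the 4 passed an adjusted p of 0.05 and 0 had an unadjusted p under 0.05, where 0% and 2.48% of the tested miRNAs did. The log2 fold changes of 4 of 4 arms lay below 0, as did 52.5% of the tested miRNAs, but miR-132-5p was at 0.0053 with median-ratio scaling and at 0.084 without mouse 65. Not one of the arms moved the same way in 5 of 5 mice, which 3.72% of the tested miRNAs did. In whole retina, fewer cells that hold a miRNA and less of it per cell cannot be told apart.

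The differences between the eyes varied from mouse to mouse. The right minus left difference of miR-132-3p was -0.38 on the log2 scale in mouse 68 and between -0.13 and 0.07 in the others, and without mouse 68 its log2 fold change was -0.02. For miR-212-5p it was -0.49 in mouse 66 and 0.23 in mouse 68, and without mouse 66 the log2 fold change was 0.00065. miR-132-5p ranged from -0.39 in mouse 65 to 0.27 in mouse 64. The differences of miR-212-3p were the narrowest of the 4, from -0.13 in mouse 61 to 0 in mouse 68. Without right mouse 65 and left mouse 68, the libraries apart in lens and muscle miRNAs, the log2 fold changes were 0.01 for miR-132-3p, 0.15 for miR-132-5p, -0.09 for miR-212-3p and -0.17 for miR-212-5p, and the adjusted p by limma was 0.652 or more for each.

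**Figure D2:**
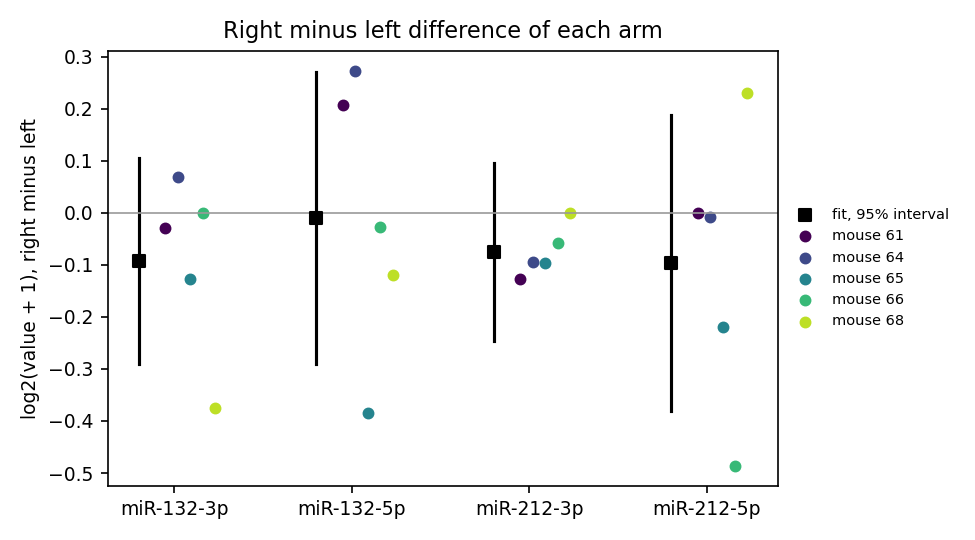
Right minus left difference of log2(value + 1) (y axis) for each arm (x axis): squares with bars are the limma estimate and its 95% interval, and coloured points are single mice. Each interval includes 0, and the widest scatter of points is that of miR-212-5p, from -0.49 to 0.23.

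The arm ratio, which sets the strands of the same hairpin against each other, was tested next. The 3p arm exceeded the 5p arm in every library for both hairpins. The log2 ratio of miR-132-3p to miR-132-5p averaged 2.65 ± 0.20 (SD, n = 10 libraries), a 6.29-fold excess, and in right retina it was 2.56, 2.25, 2.94, 2.68 and 2.62 in mice 61, 64, 65, 66 and 68, against 2.80, 2.46, 2.69, 2.65 and 2.88 in left retina. The log2 ratio of miR-212-3p to miR-212-5p averaged 1.48 ± 0.20 (SD, n = 10 libraries), a 2.78-fold excess. In right retina it was 1.37, 1.30, 1.73, 1.85 and 1.20, against 1.49, 1.38, 1.61, 1.42 and 1.43 in left retina. Every ratio of the miR-132 hairpin was above every ratio of the miR-212 hairpin.

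Other hairpins were often more lopsided. Among the 126 hairpins with both arms tested, 45.2% had more of the 3p than of the 5p arm, and the median size of the log2 ratio was 3.24. A smaller size than that of miR-132 was seen in 41.3% of them, and a smaller one than that of miR-212 in 26.2%. Over libraries, 15.9% of the hairpins had a smaller SD of the ratio than miR-132 and 15.1% a smaller one than miR-212. The median SD was 0.36, but the hairpins were not matched to these in abundance. By side, the SD was 0.25 in right and 0.16 in left retina for miR-132, and 0.28 and 0.09 for miR-212.

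A difference between the eyes was not detected in either arm ratio. The right minus left difference was -0.08 ± 0.22 on the log2 scale for miR-132 (SD over 5 mice, exact sign-flip permutation test, two-sided, p = 0.625), with 2 mice higher and 3 lower on the right. For miR-212 it was 0.02 ± 0.26 (exact sign-flip permutation test, two-sided, p = 0.938), again with 2 mice higher and 3 lower. The ratio of miR-132-3p to miR-212-3p differed by -0.02 ± 0.21 (exact sign-flip permutation test, two-sided, p = 0.938). Adjusted over these 3 tests each p was 0.938, and 5 mice cannot give a p below 0.0625 in this test.

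**Figure D3:**
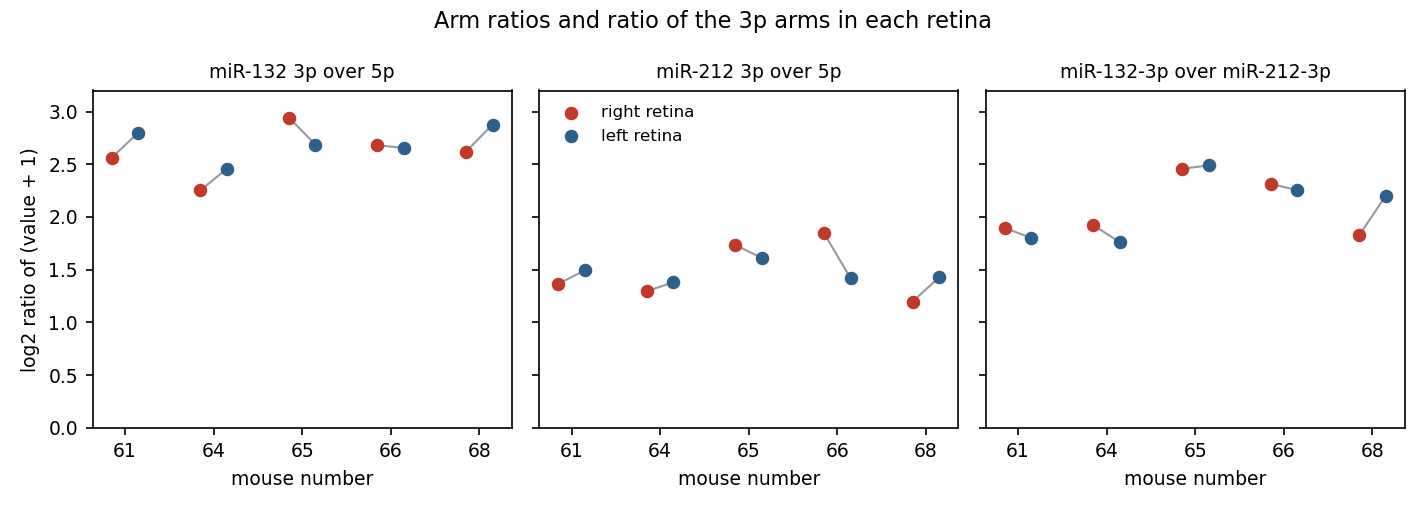
Log2 ratio of (value + 1) (y axis, from 0) in the right (red) and left (blue) retina of each mouse (x axis), for the arms of each hairpin and for the 3p arms of the hairpins. The miR-132 arm ratio lies between 2.25 and 2.94 and the miR-212 arm ratio between 1.20 and 1.85. The ratio of the 3p arms runs from 1.76 in left mouse 64 to 2.49 in left mouse 65.

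The measured ratio of the 3p arms, which share a seed and a locus, varied over libraries. miR-132-3p exceeded miR-212-3p by 4.26-fold on average, a log2 ratio of 2.09 ± 0.28 (SD, n = 10 libraries). In right retina the log2 ratio was 1.90 in mouse 61, 1.92 in mouse 64, 2.46 in mouse 65, 2.31 in mouse 66 and 1.83 in mouse 68, against 1.80, 1.76, 2.49, 2.26 and 2.20 in left retina. The lowest ratio, 3.39-fold, and the highest, 5.61-fold, were in left retinas of different mice. In mice 61, 64, 65 and 66 the eyes of an animal differed by at most 0.16 on the log2 scale, and in mouse 68 the right eye was 0.38 below the left. Mouse 65, with high miR-132-3p and low miR-212-3p in both eyes, had the highest ratio on each side. This difference between mice in the ratio was not tested.

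The 5p arms ran in the same direction. The log2 ratio of miR-132-5p to miR-212-5p was 0.70, 0.97, 1.25, 1.48 and 0.40 in the right retinas of mice 61, 64, 65, 66 and 68, against 0.49, 0.68, 1.41, 1.02 and 0.75 in left retina. Mice 65 and 66 held the highest values of both sides, as they did for the 3p arms.

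Whether mice differed was tested with both eyes of each animal. The spread of miR-132-3p was wider between mouse means than between the eyes of a mouse, with SDs of 0.22 and 0.13 on the log2 scale. For miR-212-3p these SDs were 0.12 and 0.06, for miR-212-5p 0.24 and 0.18, and for miR-132-5p 0.13 and 0.17. The first was the larger in 3 of 4 arms, and in 36% of the tested miRNAs. The first is an SD of means of both eyes and the second an SD of single eyes. Where mice do not differ, the first therefore tends to be the smaller, and the count of arms depends on this scale. No arm passed the test of a difference between mice, which 1.65% of the tested miRNAs passed. The adjusted p of limma's F test was 0.271 for miR-132-3p, 0.400 for miR-212-5p, 0.539 for miR-212-3p and 0.759 for miR-132-5p. miR-132-3p had an unadjusted p of 0.0274 by limma, and 14% of the tested miRNAs were under 0.05.

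**Figure D4:**
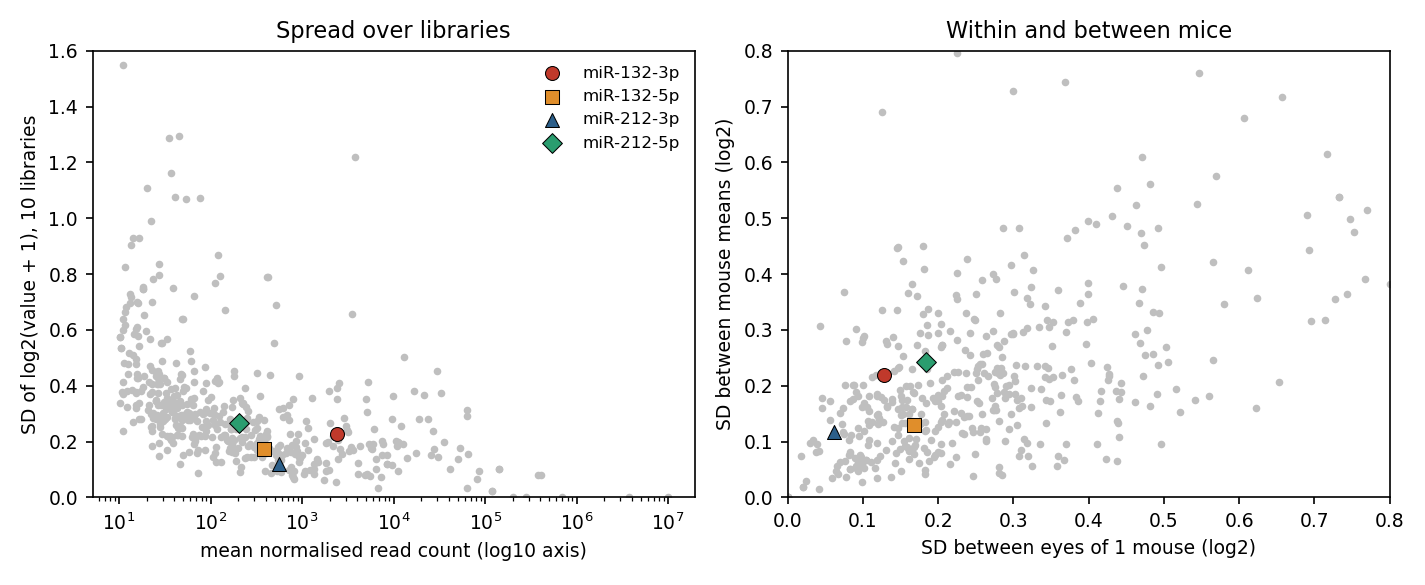
Left panel, SD of log2(value + 1) over 10 libraries (y axis) against mean normalised read count (log10 x axis). Right panel, SD between the means of the mice (y axis) against SD between the eyes of 1 mouse (x axis), both on the log2 scale. Grey points are the tested miRNAs, 2 of which lie beyond the left axes and 22 beyond the right ones, and the coloured symbols are the 4 arms, at SDs over libraries of 0.12 to 0.27.

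Each arm varied less over libraries than the median tested miRNA, though the tested miRNAs were not matched to the arms in abundance. The SD of the log2 values over 10 libraries was 0.23 for miR-132-3p, 0.18 for miR-132-5p, 0.12 for miR-212-3p and 0.27 for miR-212-5p, and the median over the tested miRNAs was 0.28. Of the tested miRNAs, 10.1% had a smaller SD than miR-212-3p and 47.7% a smaller one than miR-212-5p. The levels of miR-132-3p spanned 1.55-fold from the lowest to the highest library and those of miR-212-5p 1.70-fold.

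The arms of a hairpin were more alike in their profiles than arms of different hairpins. Over the 10 libraries, of which the 2 of a mouse share an animal, Pearson's r of the log2 values was 0.71 between the arms of miR-212 and 0.52 between the arms of miR-132. miR-212-5p was the 13th most similar of 478 miRNAs to miR-212-3p, and miR-212-3p the 26th to miR-212-5p. miR-132-5p was the 64th to miR-132-3p, and miR-132-3p the 88th to miR-132-5p. The 4 correlations across the hairpins lay below 0, from -0.64 between miR-132-3p and miR-212-5p to -0.24 between the 3p arms. These values describe 5 mice and come from values set by rank, whose part in them was not tested.

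Each arm had miRNAs of other loci with a higher correlation than its partner. These were picked as the highest among 478 miRNAs over 10 libraries, whereas the partner was fixed by name. Picking the highest of so many favours large values, so the comparison cannot decide whether these miRNAs are linked to the arms. For miR-132-3p the closest were miR-425-5p (Pearson's r 0.87 over 10 libraries), miR-181a-1-3p (0.82) and miR-496a-3p (0.82). For miR-132-5p they were miR-434-5p (0.93), miR-341-3p (0.92) and miR-744-5p (0.88). miR-212-3p was closest to miR-3086-5p (0.91), miR-3102-3p (0.84) and miR-138-5p (0.82), a miRNA of dendritic spines. miR-212-5p was closest to miR-1981-3p (0.96), miR-3082-3p (0.90) and miR-484 (0.89). With Spearman's rho, 2 of the 3 remained among the closest 3 for each arm.

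Other miRNAs known in rodent neurons to respond to activity or to act at synapses gave no called difference between the eyes. Of 11 listed, 10 were tested, and 0 passed an adjusted p of 0.05 by limma for right against left, or an unadjusted p under 0.05, where 0% and 2.48% of the tested miRNAs did. Of these 10, 2 lay above 0 and 8 below, and 52.5% of the tested miRNAs lay below 0. Their median log2 fold change was -0.08, against -0.01 over all tested miRNAs, and it was -0.02 over those with a mean of at least 100 and -0.04 without right mouse 65 and left mouse 68. The most abundant was miR-124-3p of mature neurons, with 82771 ± 3289 normalised reads in right and 81711 ± 4510 in left retina (SD, n = 5 each). miR-9-5p, a miRNA of neurogenesis, had 52742 ± 8563 in right and 53079 ± 4169 in left retina, and miR-138-5p had 5079 ± 376 in right and 5142 ± 247 in left retina. miR-329-3p, a member of the imprinted miR-379 to miR-410 cluster, was below the mean of 10 needed for the test, with 3.3 to 14.8 normalised reads.

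Between mice, 1 of the 10 listed miRNAs passed, against 1.65% of the tested miRNAs. The list was chosen with earlier results of these data known, so these shares cannot show whether the list stands out. miR-128-3p, a neuron-enriched miRNA, had an adjusted p of 0.00390 by limma's F test. Its right retinas had 2039 normalised reads in mouse 61, 4496 in mouse 64, 4496 in mouse 65, 4352 in mouse 66 and 1535 in mouse 68. Its left retinas had 2117, 4496, 4871, 4496 and 1990 normalised reads. Mice 61 and 68 were low in both eyes, whereas miR-132-3p was lowest in mouse 64.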

How the data were processed

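Per the labels' protocols, column-purified small RNA (50 ng) went into TruSeq Small RNA libraries. The submitters' processing notes name Bowtie and Partek, and mm10 and GRCm38 as builds. Sources used here do not give the trimming, the miRNA annotation or the normalisation method. The values deposited by the authors are a signal of normalised read counts, so depth is unknown and no counting interval could be given. Of the ranks, 342 shared 1 value in all libraries, as quantile normalisation gives, but ranks at 0 in all libraries are counted among them. The table held 0 columns of other samples.

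miRNAs with a mean of at least 10 (484 of 1061) were fitted as log2(value + 1), which understates changes of low miRNAs, with limma 3.58.1 in R 4.3.3, with side and mouse as terms, a mean-variance trend, two-sided tests and Benjamini-Hochberg adjustment over all tested miRNAs at 0.05. The same fit gave the F test between mice. Pairing came from the labels, since eyes of a number belong to 1 animal. Deviations of the eyes of a mouse correlated across miRNAs by 0.0893 to 0.382, against -0.338 to 0.355 between mice, where the median was -0.0824. Ratios were tested with exact sign-flip tests in Python 3.11.15, and the fit was tested on simulated data. The table's ends lay 1 base beyond the RefSeq ends of the 4 arms, and the RefSeq ends are printed. The members and lists were chosen with earlier results of these data known. Named miRNAs are the 4 arms, the 3 most abundant and any called miRNA of the activity list, the 3 closest profiles of each arm, miRNAs with a shared seed, chromosomal neighbours and the leading marker of each list. miR-329-3p was named as the list's untested miRNA. miR-22-3p, the other arm of a neighbour, and the ratio of the 5p arms were chosen after their values were seen.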

Additional observations from a re-analysis of the deposited data

Results flagged for a closer look

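A single library was set apart from the other 4 of its side, by its gap as a share of the range, in 3 of 34 groups examined. Chance gives about 1 in 20 where values are not tied. In right mouse 65 the summed lens, cornea and surface epithelium miRNAs were at 22622 normalised reads, and in left mouse 68 the summed muscle miRNAs were at 1629. miR-22-3p was at 121034 normalised reads in right mouse 65 and at 117214 in the other 4 right libraries, a small gap that spans the whole range because these 4 are tied. No arm of miR-132 or miR-212 and no ratio between them was set apart in this way, and their values without right mouse 65 and left mouse 68 are given with the comparison of the eyes.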

How the results depend on the processing

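Of 224 values recomputed, 13 moved and 9 changed sign. The other 202 kept their direction and side of the threshold or, for counts, mean ratios and medians, stayed within a set margin. The margin was wide for counts, where 8 and 12 miRNAs passing between mice were held to be the same. Differences between the eyes in the arms and ratios were not judged by size. No miRNA passed for right against left in any of the 13 alternatives, with 12 miRNAs at an unadjusted p under 0.05 by limma in all mice and 63 without mouse 65. Without the replicate block, log2 fold changes were the same (-0.09 for miR-132-3p) and 0 miRNAs passed for right against left. That fit gives no test between mice. Leaving out each mouse in turn, the log2 fold changes ranged from -0.13 to -0.02 for miR-132-3p, from -0.081 to 0.084 for miR-132-5p, from -0.09 to -0.06 for miR-212-3p and from -0.18 to 0.00065 for miR-212-5p. The arm ratio difference of miR-212 ranged from -0.080 to 0.084 and that of the 3p arms from -0.062 to 0.072. With median-ratio scaling miR-132-5p was at 0.0053, and without right mouse 65 and left mouse 68, a choice made after seeing the data, miR-132-3p was at 0.013 and miR-132-5p at 0.15. Between mice, 8 miRNAs passed, 5 without a mean-variance trend, 10 with median-ratio scaling, 12 without right mouse 65 and left mouse 68 and 3 to 7 without each mouse in turn, and the adjusted p by limma of the arms stayed at 0.141 or above. The cause was not tested. Values rest on ranks, so changes that leave ranks in place are not seen.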
